A study of Mus musculus with 3 samples.

Results

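Replication-dependent histone genes encode the proteins that package newly copied DNA. In macrophages lacking Angptl4, 39 of 47 probe sets for genes with such names were highest on the array of cells given intralipid, as were 13.4% of all probe sets with a symbol. With PBS, or with intralipid plus recombinant ANGPTL4, their values lay close together. H4c9, a histone H4 gene, had log2 values of 5.69 (PBS), 8.98 (intralipid) and 5.68 (intralipid plus ANGPTL4, called ANGPTL4 from here on). The intralipid value was thus 9.80-fold that of PBS on the linear scale.

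The probe sets were chosen by gene symbol: every symbol that the platform annotation gives a probe set had to match H1f, H2ac, H2bc, H3c or H4c followed by a number. This gave 47 of the 23410 probe sets that carry a symbol, 30 with 1 symbol and 17 with several. The group itself was selected on these same arrays, after their values on PBS, intralipid and ANGPTL4 had been seen. All of its values are therefore a description, and no test was made. A total of 9 further probe sets fell just outside the rule because 1 to 3 of their 14 to 20 symbols do not match it.

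Each of the 3 arrays held RNA pooled from 3 samples of cultured peritoneal macrophages of male Angptl4-/- mice (strain C57Bl/6J, age not stated), which had been drawn into the peritoneum by 4% thioglycollate. The groups were PBS, intralipid (a triglyceride emulsion, 0.5 mM triglyceride) and the same intralipid with 2.5 µg/mL recombinant ANGPTL4, an inhibitor of lipoprotein lipase that was added 1.5 h ahead. Exposure lasted 6 h after 2 days of culture, and the labels record no mock pre-incubation for PBS or intralipid alone. All groups carried the deletion, so no wild-type cells were compared. With 1 array per group there is no replicate spread: differences describe these arrays, and no p-value is given.

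All 12 macrophage markers examined passed the expression floor, set for each array at the median of its probe sets with a symbol (4.97 to 4.98 in log2). None of the 16 measured B cell, T and NK cell, or mast cell markers did, and 1 of 7 neutrophil markers did. Of 9 fibroblast and mesothelial markers, 5 passed, all of them fibroblast genes, and the list's median log2 value was 7.65 (PBS), 7.38 (intralipid) and 7.48 (ANGPTL4). The part of those cells in the histone values was not tested. In bulk RNA, fewer cells of a type and less RNA per cell cannot be told apart. The probe set for Angptl4 lay at 4.92 in log2 on all arrays, and whether it lies in the deleted part is not known.

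DNA is wound around an octamer of the core histones H2A, H2B, H3 and H4, and the linker histone H1 binds where it enters and leaves. Cells transcribe most of these genes during DNA replication, from many near-identical copies that lie in clusters. The transcripts have no introns and usually end in a stem-loop bound by SLBP in place of a poly(A) tail, although some of the genes, H1f2 and H2bc21 among them, can also give polyadenylated transcripts. The whole-transcript labelling used here primes at random and so does not need such a tail. The pattern of the rule also takes in relatives with other roles: H1f6, H1f7, H2ac1 and H2bc1 are known from male germ cells, H1f8 from oocytes, and H1f10 is a linker histone made outside S phase.

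The sequences just before the gene start are shown for the 4 single-symbol genes whose values spread most over the arrays, and for H4c8, chosen after its values were seen as an H4 gene whose own probe set lay below the floor on all arrays. H4c8 is also among the 11 symbols of the shared H4 probe sets. Each holds the 250 bases before the start, from RefSeq (GRCm38.p6). The windows are chr13:22041363-22041612 on the minus strand for H4c9, and, on the plus strand, chr13:23738557-23738806 for H1f2, chr13:23575513-23575762 for H3c4, chr13:23554782-23555031 for H1f3 and chr13:23530794-23531043 for H4c8. Capitals mark matches, on either strand, to any of the 6 motifs named in the next paragraph.
H4c9: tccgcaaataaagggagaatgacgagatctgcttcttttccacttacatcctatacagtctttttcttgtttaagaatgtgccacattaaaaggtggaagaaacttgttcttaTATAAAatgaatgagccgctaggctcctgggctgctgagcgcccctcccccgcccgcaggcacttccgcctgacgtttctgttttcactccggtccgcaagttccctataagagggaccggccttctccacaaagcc
H1f2: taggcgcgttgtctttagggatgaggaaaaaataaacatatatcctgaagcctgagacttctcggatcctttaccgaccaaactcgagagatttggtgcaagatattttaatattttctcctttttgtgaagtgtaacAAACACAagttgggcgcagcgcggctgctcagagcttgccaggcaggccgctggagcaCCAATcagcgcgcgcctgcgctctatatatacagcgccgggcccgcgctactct
H3c4: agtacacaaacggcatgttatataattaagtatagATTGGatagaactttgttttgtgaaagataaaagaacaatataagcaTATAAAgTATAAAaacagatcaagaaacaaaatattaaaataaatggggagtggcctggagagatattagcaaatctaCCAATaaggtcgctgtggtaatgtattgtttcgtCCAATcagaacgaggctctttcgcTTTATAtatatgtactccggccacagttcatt
H1f3: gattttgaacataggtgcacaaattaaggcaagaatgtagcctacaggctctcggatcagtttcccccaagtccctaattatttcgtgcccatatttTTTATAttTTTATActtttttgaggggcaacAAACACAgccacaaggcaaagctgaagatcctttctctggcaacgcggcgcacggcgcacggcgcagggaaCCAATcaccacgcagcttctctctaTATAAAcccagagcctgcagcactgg
H4c8: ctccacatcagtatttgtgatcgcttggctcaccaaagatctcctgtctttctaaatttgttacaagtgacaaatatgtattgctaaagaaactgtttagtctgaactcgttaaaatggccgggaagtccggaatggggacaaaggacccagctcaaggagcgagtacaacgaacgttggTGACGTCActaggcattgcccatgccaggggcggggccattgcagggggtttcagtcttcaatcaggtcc

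In H1f3, the TATA box motif TATAAA began 26 bases before the start. In H3c4 the match 32 bases before the start was on the other strand and reads TTTATA. The motif CCAAT began 56 (H3c4) and 51 (H1f3) bases before the start. Each of these genes also had matches farther out. H1f2 had CCAAT at 54 bases and no TATAAA. Both H1 genes carried the motif AAACACA, known as the H1 box, 112 bases (H1f2) and 122 bases (H1f3) before the start. The H4c9 window held only TATAAA, at 137 bases, and the H4c8 window only TGACGTCA, the cyclic AMP response element, at 70 bases. The search also covered the octamer motif ATTTGCAT and the AP-1 motif TGANTCA, neither of which matched in these 5 windows. Only these exact strings were searched, with any base for the N, so a window without a match may still hold a variant of the motif. A match is a run of letters, not a shown binding site.

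Over the 63 RefSeq windows of genes matching the rule (62 genes, among them 26 of the 30 with a single-symbol probe set), CCAAT was present in 79.4%, against 33.8% of all 32851 windows of this length. It was in every one of the 17 H2A and 15 H2B windows, in 8 of 10 H3 windows, and in 3 of 11 H4 windows. TATAAA was present in 44.4% of the histone windows and 12.4% of all. The octamer was found in 6 H2A and 7 H2B windows and in none of the other classes, or 20.6% of the histone windows against 1.60% of all. AAACACA was in 5 of 10 H1 windows and in 14.3% of the histone windows (6.25% of all). TGANTCA was in 4.76% (6.75% of all) and TGACGTCA in 6.35% (1.55% of all). No overlap between different motifs was removed.

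**Figure D1:**
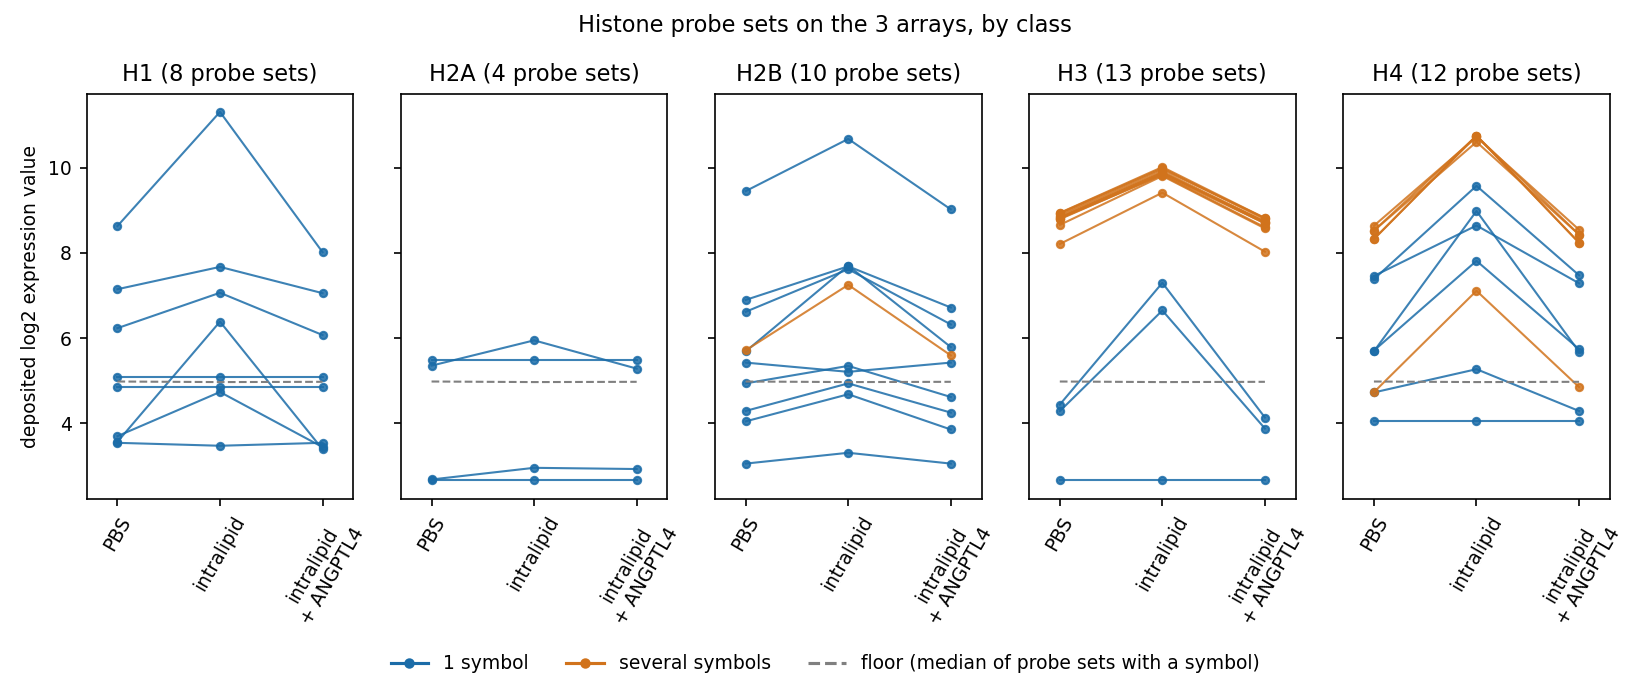
Deposited log2 expression values (vertical axis) of the 47 histone probe sets on the 3 arrays (horizontal axis), by class. Each line is 1 probe set, blue with 1 symbol and orange with several, and the dashed line is the floor. The probe set for H2bc6 and H1f4 is drawn with H2B. In 39 of 47 lines the intralipid array is the highest point (13.4% of all probe sets with a symbol, or 20.0% of those that reach the floor on any array), and the outer points lie close together.

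Of the 47 probe sets, 31 reached the floor on all 3 arrays, 6 on the intralipid array only, and 10 on none. The median log2 value was 5.71 (PBS), 7.67 (intralipid) and 5.79 (ANGPTL4). Against PBS, 27 members were at least 2-fold higher with intralipid (with the higher array at the floor), while 1.44% of all probe sets with a symbol were. None was 2-fold lower, against 0.632% of all. The median difference in log2 value was 1.06 over the 47, and 0.00 over all probe sets with a symbol. The members are not independent measurements, since 10 of them carry the same 12 H3 symbols and 5 the same 11 H4 symbols. Among the 30 single-symbol members, 10 were at least 2-fold higher, 22 were higher by any amount, 2 were lower and 6 were equal, with a median of 0.64. Of all probe sets with a symbol, 17.1% were higher by any amount and 26.6% lower.

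The array with ANGPTL4 was compared with intralipid alone, and the difference ran the other way. Here 28 of 47 members were lower by at least 2-fold, against 1.37% of all probe sets with a symbol, and none was 2-fold higher, against 1.19%. The median difference was -1.20 (0.00 over all), and -0.90 over the single-symbol members, 11 of which were at least 2-fold lower. This comparison shares the intralipid array with the one before, so a high value on that array enters both.

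Intralipid with ANGPTL4 differed little from PBS, in the members as over the whole array. No member was 2-fold higher (0.393% of all) or 2-fold lower (0.0171% of all). With shares that low, finding none among 47 probe sets does not set the histones apart. At 1.5-fold, 1 was lower (0.252% of all) and none higher (1.14% of all). The small differences that were there were mostly downward: 33 members were lower with ANGPTL4 than with PBS, 5 higher and 9 equal, with a median of -0.09. Of all probe sets with a symbol, 19.0% were lower and 20.2% higher.

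**Figure D2:**
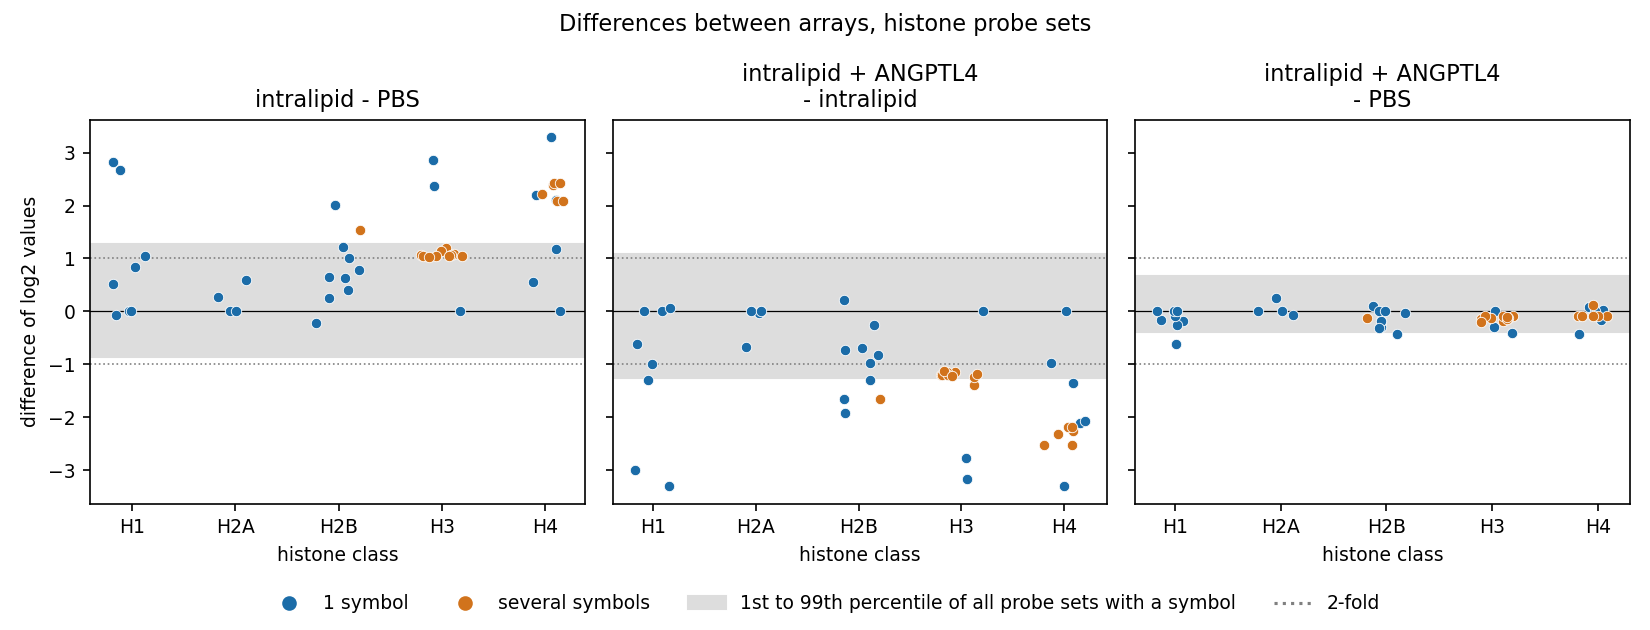
Differences of log2 values between arrays (vertical axis) for the histone probe sets by class (horizontal axis), in 3 panels for the 3 comparisons. Points are probe sets, blue with 1 symbol and orange with several, the probe set for H2bc6 and H1f4 being drawn with H2B. The grey band spans the 1st to 99th percentile of all probe sets with a symbol, and dotted lines mark 2-fold. For intralipid minus PBS 15 members lie above the band, for the ANGPTL4 array minus intralipid 20 lie below it, and for the ANGPTL4 array minus PBS 4 lie below it.

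By class, the median difference of intralipid from PBS was 0.68 for the 8 H1 probe sets, 0.14 for 4 of H2A, 0.65 for 9 of H2B, 1.06 for 13 of H3 and 2.15 for 12 of H4. That of ANGPTL4 from intralipid was -0.80, -0.01, -0.83, -1.20 and -2.18 in the same order, and that of ANGPTL4 from PBS lay between -0.18 (H2B) and 0.00 (H2A). The remaining probe set is that shared by H1f4 and H2bc6. Several-symbol probe sets make up most of the H3 class and 6 of 12 in H4, so the classes differ in what is counted as well as in size.

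Linker histones compact the fibre between nucleosomes, and the somatic kinds tied to replication are H1f1 to H1f5. H1f2 (probe set 10404059) had log2 values of 8.63 (PBS), 11.31 (intralipid) and 8.02 (ANGPTL4). The intralipid array stood far above the others, 6.41-fold over PBS, and the ANGPTL4 array was 9.81-fold below it. H1f2 was also the 1 member that fell short of its PBS value by 1.5-fold or more with ANGPTL4, by a log2 difference of -0.61, the 52nd lowest of the 23410 probe sets. H1f3 had values of 3.56, 6.39 and 3.39 in the same order, so that it reached the floor with intralipid only. Its 7.08-fold difference from PBS rests on a value near background, and counted from the floor it would be 2.65-fold.

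The remaining linker histones among H1f1 to H1f5 differed less. H1f1 had log2 values of 6.23, 7.06 and 6.07 on the PBS, intralipid and ANGPTL4 arrays, 1.78-fold higher with intralipid than with PBS. For H1f5 they were 7.15, 7.67 and 7.05, a 1.44-fold difference. In both, intralipid was the highest array and ANGPTL4 the lowest. H1f4 shares its probe set with the core histone gene H2bc6, and those values were 5.71, 7.25 and 5.59 (2.90-fold higher with intralipid).

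The linker histones of germ cells, and H1f10, lay below the floor or were equal on all arrays. H1f10 was equal on all arrays, at 5.08. H1f7 was also equal, at 4.85, below the floor, and H1f8 was below it too, at 3.54, 3.47 and 3.54. H1f6 stayed below the floor at 3.70, 4.73 and 3.44, with intralipid highest. Of the 8 single-symbol H1 probe sets, 2 were at least 2-fold higher with intralipid than with PBS, both of them somatic types. Of all probe sets with a symbol, 1.44% were.

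H2A was the class least covered by the rule. H2ac15 had log2 values of 5.35 (PBS), 5.95 (intralipid) and 5.28 (ANGPTL4), which puts intralipid 1.51-fold over PBS. H2ac1, the testis form of H2A, was equal at 5.49 on all arrays. H2ac4 and H2ac8 lay far below the floor, at no more than 2.95. None of the 4 probe sets was 2-fold apart in any comparison. Of all probe sets with a symbol, at most 1.44% were in any 1 comparison and direction. Finding none among 4 therefore does not set the class apart from the array. A further 13 H2A genes are covered only by a pair of probe sets outside the rule, with 19 and 20 symbols, among them H2ax and the H3 gene H3c4, so their values are not of H2A alone. In one the values were 10.63, 11.23 and 10.48, in the other 9.47, 9.99 and 9.41, so that the difference of intralipid from PBS was 0.60 and 0.52. As in most members, intralipid was the highest array in both.

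H2B pairs with H2A in the octamer. H2bc4 had log2 values of 9.45 (PBS), 10.68 (intralipid) and 9.02 (ANGPTL4), 2.34-fold higher with intralipid and 3.15-fold lower again with ANGPTL4. H2bc8 had 5.69, 7.70 and 5.79, a 4.04-fold difference of intralipid from PBS and the largest among single-symbol H2B probe sets. With ANGPTL4 it was above PBS by 0.10, where H2bc4 was below it (-0.43). H2bc14 had 6.62, 7.62 and 6.32, a hair under 2-fold higher with intralipid, and H2bc9 had 6.90, 7.69 and 6.72 (1.73-fold).

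Further H2B genes lay near or under the floor. H2bc18 reached it only with intralipid, at 4.94, 5.35 and 4.62. H2bc3 (4.29, 4.94 and 4.25), H2bc22 (4.04, 4.68 and 3.85) and the testis form H2bc1 (3.05, 3.31 and 3.05) never did, though intralipid was the highest array for each. H2bc21 was the 1 member past the floor with intralipid lowest, while H1f10 and H2ac1 were equal on all arrays. Its log2 values were 5.42 (PBS), 5.21 (intralipid) and 5.42 (ANGPTL4). Of the 9 single-symbol H2B probe sets, 8 were higher with intralipid than with PBS and 1 lower, and 2 were at least 2-fold higher. Of all probe sets with a symbol, 17.1% were higher, 26.6% lower and 1.44% at least 2-fold higher.

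A set of 7 H2B probe sets was left out by the rule only because each lists H4bc24 beside 13 or 14 matching symbols. Their values ran from 7.14 to 8.23 with PBS, from 8.65 to 9.53 with intralipid and from 6.96 to 7.90 with ANGPTL4. All 7 were at least 2-fold higher with intralipid than with PBS (1.44% of all probe sets with a symbol were), by log2 differences of 1.30 to 1.51. Their differences of ANGPTL4 from intralipid ran from -1.69 to -1.48. A pair of them had the same 3 values, and they list largely the same genes, so they do not add 7 measurements.

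H3 carries many of the modified residues of chromatin. The 10 probe sets with the same 12 H3 symbols had log2 values of 8.21 to 8.94 (PBS), 9.41 to 10.02 (intralipid) and 8.03 to 8.82 (ANGPTL4). These 10 list the same genes on 1 array per group, so their ranges do not show a spread between samples. H3c4, H3c7 and H3c15, which also have probe sets of their own, are among the 12 symbols. Some differences of intralipid from PBS repeated within the 10, such as 1.05582 in a pair of them. The folds of the 10 probe sets over PBS ran from 2.03 to 2.31, and those below intralipid with ANGPTL4 from 2.19 to 2.61. Each was thus just past 2-fold, and they make up 10 of the 27 members counted as 2-fold higher.

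H3c4 and H3c15, measured singly, differed more than the shared H3 probe sets. H3c4 had log2 values of 4.44 (PBS), 7.30 (intralipid) and 4.13 (ANGPTL4), and H3c15 had 4.28, 6.65 and 3.88. Both were past the floor on the intralipid array only. The difference of intralipid from PBS was 7.26-fold for H3c4, or 4.99-fold counted from the floor, and 5.15-fold for H3c15, or 3.18-fold. H3c7 was equal on all arrays at 2.66, well below the floor.

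H4 genes, which all encode the same or nearly the same protein, had the largest class median over all probe sets. Over single-symbol probe sets alone the order turned, with a median difference of intralipid from PBS of 2.36 for 3 of H3 and 1.65 for 6 of H4. Over the 12 H4 probe sets the median difference of intralipid from PBS was 2.15. At least 2-fold higher were 10 of 12, against 1.44% of all probe sets with a symbol. The median difference of ANGPTL4 from intralipid was -2.18. The H4c9 probe set (10408113) ranked 15th from the top among the 23410 for intralipid minus PBS, and 11th from the bottom for ANGPTL4 minus intralipid. With ANGPTL4 its value was 9.88-fold lower than with intralipid and within 0.01 of PBS.

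H4c4 followed with log2 values of 7.39 (PBS), 9.58 (intralipid) and 7.48 (ANGPTL4), or 4.56-fold higher with intralipid than with PBS. H4c6 had 5.71, 7.81 and 5.74 (4.31-fold). In each of these genes the PBS and ANGPTL4 arrays were within 0.10 of each other. H4c14 had 7.46, 8.64 and 7.29 (2.27-fold), again with intralipid highest. H4c3 reached the floor with intralipid only, at 4.72, 5.27 and 4.29, and H4c8 lay below it on all arrays, at 4.04 on each.

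The 5 probe sets that share 11 H4 symbols had log2 values of 8.33 to 8.64 (PBS), 10.61 to 10.75 (intralipid) and 8.24 to 8.55 (ANGPTL4). Those were 4.24 to 5.38-fold higher with intralipid than with PBS and 4.52 to 5.72-fold lower with ANGPTL4 than with intralipid. A pair of the 5 had the same 3 values, so at most 4 of them are separate readings. A further probe set, for H4c17 and H4c11, had 4.73, 7.11 and 4.85, past the floor with intralipid only, and counted from the floor the difference was 4.38-fold.

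Cross-hybridisation among near-identical copies cannot be told from these values, so the level of any one histone gene, single-symbol probe sets included, is uncertain. The members differed by unequal amounts: among single-symbol probe sets past the floor on at least 1 array, differences of intralipid from PBS ran from -0.22 (H2bc21) to 3.29 (H4c9).

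By position in RefSeq, 23 of the 30 single-symbol genes lie on the chromosome that holds most histone genes, and 4 (H2bc18, H2bc21, H3c15 and H4c14) in the smaller cluster on another. Of all probe sets with a symbol, 17.1% were higher with intralipid than with PBS and 1.44% at least 2-fold higher. In the large cluster 19 of 23 were higher with intralipid than with PBS, 4 were equal, and 8 were at least 2-fold higher. In the small cluster 3 were higher, 2 of them at least 2-fold, and H2bc21 was lower. The 3 genes that lie elsewhere, H1f7, H1f8 and H1f10, were equal or, for H1f8, lower by 0.07. Genes at least 2-fold higher with intralipid thus came from both clusters.

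The list of replication-independent histones holds mainly variants whose genes are not tied to S phase. Some of its genes still vary with the cell cycle, among them Cenpa, which is transcribed mainly in G2. Of its 9 genes with a single-symbol probe set, 1 was higher with intralipid than with PBS, 3 were lower and 5 were equal. The median difference was 0.00, and none was 2-fold apart. Only 7 of the 9 passed the floor. The others, H3f3a (3.60) and Macroh2a2 (3.97), were equal on all arrays and are among the 5. Of all 11895 probe sets past the floor, 25.5% were higher and 42.5% lower, 338 and 148 of them by at least 2-fold. Cenpa, the H3 variant of the centromere, had log2 values of 7.69, 8.42 and 7.33 on the PBS, intralipid and ANGPTL4 arrays. H2az1, an H2A variant found at promoters, had 9.94, 9.34 and 9.99, and H2az2 had 7.59, 6.93 and 7.39. Here the intralipid array was highest for Cenpa and lowest for the H2A.Z genes. H2aj differed by -0.14. With ANGPTL4 against intralipid, Cenpa was 2.13-fold lower, and 1.37% of all probe sets with a symbol were at least 2-fold lower. Cenpa was the 1 gene of the list 2-fold apart. A total of 4 genes were higher and 4 equal, while 44.6% of all probe sets past the floor were higher and 24.7% lower. Differences were 0.65 for H2az1, 0.46 for H2az2 and 0.14 for H2aj. Against PBS the differences were -0.36 for Cenpa, -0.20 for H2az2, 0.05 for H2az1 and 0.03 for H2ax. H1f10 stands in this list and among the members.

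H3f3b, one of the genes for the replacement histone H3.3, has only probe sets that it shares with the symbol Gm6485, so it was not in the list's count. Those had log2 values of 11.29, 12.30 and 11.28 in one and 10.82, 11.94 and 10.84 in the other, 2.01-fold and 2.18-fold higher with intralipid than with PBS. The H3f3a probe sets shared with Gm12657 stayed between 10.05 and 10.22. Outside the name pattern, H2aw was 1.59-fold and H4f16 1.40-fold higher with intralipid than with PBS. The genes of this paragraph were picked out after their values were seen.

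**Figure D3:**
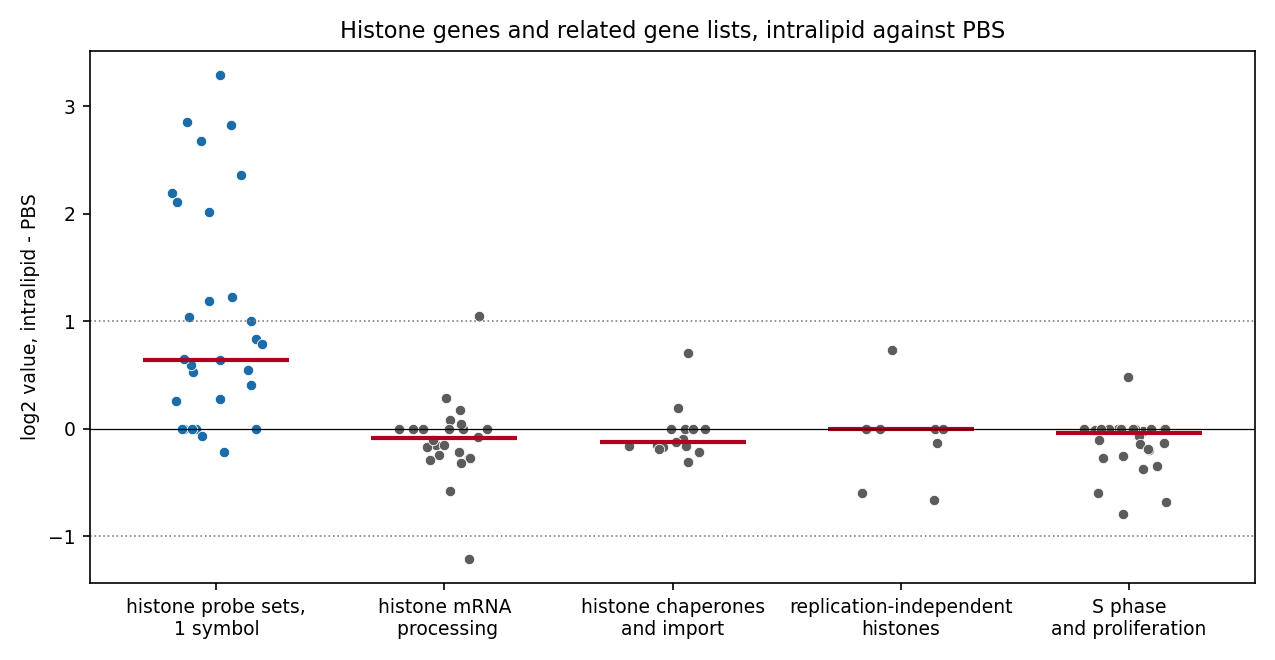
Difference of log2 values, intralipid minus PBS (vertical axis), for the 30 single-symbol histone probe sets (blue) and for the measured genes of 4 related lists (grey), 1 point per probe set or gene, with red bars at the medians and dotted lines at 2-fold. The histone median is 0.64, and the medians of the lists lie between -0.13 and 0.00. H1f10 is drawn both among the members and among the replication-independent histones.

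S phase is when cells transcribe most of the histone genes. Of 26 S phase and proliferation genes measured, 1 was higher with intralipid than with PBS, 15 were lower and 10 were equal (median -0.04, none 2-fold apart). The median over all 19938 genes was 0.00, with 3153 higher and 5521 lower. Of the list, 21 genes passed the floor, and of all probe sets past it 25.5% were higher and 42.5% lower. By at least 2-fold, 338 of those 11895 probe sets were higher and 148 lower. Mki67, a marker of cycling cells, was equal on all arrays at 5.28. Rrm1, a ribonucleotide reductase subunit, differed by -0.79, the kinase gene Cdk2 by -0.69 and Pcna, the sliding clamp of replication, by -0.60. Mcm2, a subunit of the replicative helicase, was the 1 higher gene, by 0.48. With ANGPTL4 against intralipid, 14 were higher, 1 lower and 11 equal, while 44.6% of all probe sets past the floor were higher and 24.7% lower. Rrm1 was higher by 0.87, Cdk2 by 0.75 and Mcm6 by 0.54, and Mcm2 lower (-0.76). Against PBS they had a median of 0.00, and the largest differences were in E2f3 (0.29), Mcm2 (-0.28), Mcm7 (-0.26) and Mcm6 (0.20).

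Among 24 measured genes that transcribe histone genes or process and degrade their mRNA, 5 were higher with intralipid than with PBS, 13 lower and 6 equal (median -0.09). Of the 24, 22 passed the floor, and the others, Zfp473 and Coil, were equal on all arrays. Of all probe sets past the floor, 25.5% were higher and 42.5% lower. Ncbp2, a subunit of the nuclear cap-binding complex, had log2 values of 7.80, 6.58 and 8.04, 2.32-fold lower with intralipid. Tut4, a terminal uridylyltransferase, had 7.53, 8.58 and 7.41, 2.07-fold higher. These were the only genes of the list 2-fold apart, Tut4 in the direction of the histones and Ncbp2 in the opposite one. Snrpd3, a core protein of small nuclear particles, differed by -0.58 and Srrt, a cap-binding partner, by -0.32. Slbp had 7.06, 7.24 and 7.32 in its higher probe set and 7.04, 7.03 and 7.05 in the other, and Npat, the activator of histone gene transcription in S phase, had 5.76, 5.66 and 5.76.

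With ANGPTL4 against intralipid, 16 of these 24 genes were higher and 3 lower (median 0.14), against 44.6% and 24.7% of all probe sets past the floor. Ncbp2 was 2.74-fold higher, Snrpd3 higher by 0.64 and Srrt by 0.55, and Tut4 was 2.25-fold lower. Against PBS, 15 were higher and 2 lower (median 0.03), while 35.6% and 24.0% of all probe sets past the floor were. There were differences of 0.32 for Upf1, a helicase of mRNA decay, 0.26 for Slbp, 0.24 for Ncbp2 and 0.23 for Srrt.

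Histone chaperones carry new histones to DNA, and the list joins them with genes of histone import and related factors. Of 15 measured, 2 were higher with intralipid than with PBS, 9 lower and 4 equal (median -0.13), and none was 2-fold apart. All 15 passed the floor, and of all probe sets past it 25.5% were higher and 42.5% lower. By at least 2-fold, 338 of those 11895 probe sets were higher and 148 lower. Chaf1b, a subunit of the chromatin assembly factor that works at replication forks, was the largest, with log2 values of 6.59, 7.30 and 6.31. Asf1b, an H3-H4 chaperone, differed by -0.31, Rbbp7 by -0.22 and Supt16, a subunit of the FACT complex, by -0.19. With ANGPTL4 against intralipid, 10 were higher and 1 lower, against 44.6% and 24.7% of all probe sets past the floor. Differences were -0.99 for Chaf1b, 0.31 for Asf1b, 0.29 for Rbbp7 and 0.26 for Nap1l4. Against PBS, 6 were higher and 1 lower (35.6% and 24.0% of all probe sets past the floor), with -0.29 for Chaf1b, 0.19 for Asf1a, 0.09 for Nap1l4 and 0.07 for Rbbp7.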

How the data were processed

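Gene expression was measured with 1 Affymetrix array for each of 3 groups, and the RNA of 3 samples was pooled on each. The authors deposited log2 expression values per probe set made with RMA (robust multi-array average: background correction, normalization between arrays and a summary over probes), per the submitters' processing notes. Sources used here do not state the RMA version, chip definition or filters. RMA left 41.4% of the 35556 probe sets with 1 value on all arrays, so small differences can come out as 0. Depth does not apply to arrays, and their number limits the precision.

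Values were used as deposited. Probe sets were named from GEO's platform annotation (1 symbol for 21789, several for 1621, none for 12146), and all 47 symbols on members were found in the RefSeq table of GRCm38.p6. A probe set counts as 2-fold apart where its log2 values differ by at least 1 and the higher array reaches the floor. For the related lists, the single-symbol probe set with the highest mean was used per gene. Folds are on the linear scale. Named were all members past the floor, the 3 below it with the largest range (others below it were added after their values were seen), and of each list the 4 members past the floor with the largest differences, with Slbp, Npat and Mki67. The counting was tested on simulated data. Members, lists and rules were chosen with earlier results of these data known. Alternatives used limma 3.58.1 in R 4.3.3, and all other steps Python 3.11.15.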

Additional observations from a re-analysis of the deposited data

How the results depend on the processing

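The direction of the median difference held in all 3 comparisons under every alternative run. For intralipid minus PBS, the count of 27 members became 14 at 3-fold and 10 with single-symbol probe sets only. For ANGPTL4 minus intralipid, the count of 28 became 16 and 11. Against PBS, 0 became 1 at 1.5-fold. The remaining alternatives (other floors, arrays centred, quantile and cyclic loess normalization, and leaving out germ cell and replacement types) gave 24 to 31 and 25 to 34 members, the upper ends at 1.5-fold. The median of intralipid minus PBS (1.06) was 1.15 over members past the floor, 1.19 as a mean, 0.64 over single-symbol probe sets and 0.81 with probe sets of the same symbols averaged. That of ANGPTL4 minus intralipid (-1.20) was -1.31 as a mean, -0.90 over single-symbol probe sets and -0.99 with the same symbols averaged. That of ANGPTL4 minus PBS (-0.09) was -0.14 after quantile normalization and -0.055 over single-symbol probe sets. With no replicates, a median was taken as moved where it shifted by more than the robust SD of that comparison over all probe sets with a symbol (0.07, 0.10 and 0.04). Leaving out germ cell types and averaging were chosen after seeing the data. No paired analysis was possible because each group has 1 array. Signals near or below the floor limit the folds of the 6 members past it with intralipid only (H1f3, H2bc18, H3c4, H3c15, H4c3 and the probe set of H4c17 and H4c11).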
